A study of Homo sapiens with 36 samples.

Results

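The genes described here are 9 markers in common use for neural progenitor cells: SOX1, SOX2, SOX3, SOX21, PAX6, NES, VIM, PROM1 and FABP7. They were picked by name, and each matched exactly 1 of the 62710 genes in the deposited count table. All 9 passed the filter on low counts in each of the 15 comparisons made.

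The libraries came from H9, an established human embryonic stem cell line, in which doxycycline turns on NGN2 (the protein of NEUROG2) and drives the cells to become neurons called iNeurons. WT cells, RAI1+/- cells (labelled RAI1 Het, HET here) and RAI1-/- cells (labelled RAI1 Knockout, KO here) gave RNA on day 0 and on days 3 and 7 of differentiation. Each of the 9 groups had 4 biological replicates, 36 libraries in all, and every group went through the same NGN2 protocol in Neurobasal-A medium with B27, GDNF, NT3 and CultureOne. The sources used here do not say how the alleles were made or how many clones stand behind a genotype, so a difference between genotypes cannot be told apart from one between clones. Whether replicates were separate differentiations is not given either, so the p-values measure the spread between these cultures only.

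Neural progenitors are dividing cells that line the neural tube and later give rise to neurons and glia. SOX1, SOX2 and SOX3 form the SOXB1 group of transcription factors, which hold cells in the progenitor state. SOX21 belongs to the related SOXB2 group, which counters SOXB1 proteins and favours differentiation. PAX6 is a homeodomain factor of forebrain and hindbrain progenitors, NES and VIM encode intermediate filaments, PROM1 encodes a membrane glycoprotein of cell protrusions, and FABP7 encodes the lipid-binding protein of radial glia. Several of these genes are not limited to progenitors: SOX2 is also a pluripotency factor, and VIM is abundant in mesenchyme. Forced NGN2 expression takes stem cells to neurons quickly, without a long progenitor stage.

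Library totals ranged from 23.95 to 56.68 M expected counts, and replicates correlated at r = 0.972 to 0.998 over genes. RAI1 itself was no lower in the mutant groups, with 38.1 to 73.1 CPM (counts per M, normalised between libraries) in WT and 63.3 to 99.97 CPM in KO at day 7, so its level does not check the genotype labels. The 9 stem cell markers fixed for comparison (POU5F1, NANOG and others) summed to between 700.6 and 2026 TPM at day 0. The day 0 values are therefore levels in cultures with stem cell markers, and do not by themselves show progenitor cells. Whether those cultures held any neural progenitors was not tested. At day 7, RMRP, RPPH1, RN7SK and the RN7SL1 and RN7SL2 pair, all short structural transcripts, took 20.4% ± 5.1 of WT counts, 11.96% ± 11.4 of HET counts and 12.2% ± 2.7 of KO counts (mean ± SD of 4 libraries).

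Levels of different genes were compared in the deposited TPM, which divides by transcript length. At day 0 the mean TPM followed 1 order in all 3 genotypes: VIM, NES, SOX2, FABP7, PROM1, SOX21, SOX1, SOX3 and PAX6. In WT it ran from 434.4 TPM for VIM through 109.2 for NES, 64.4 for SOX2 and 35.0 for FABP7 down to 0.133 for PAX6. By day 7 PAX6 stood behind VIM and NES alone in WT at 4.58 TPM, above SOX2 at 1.68 TPM. It held the same place in HET, at 3.50 TPM, whereas in KO it fell behind FABP7 and SOX2 too, at 0.590 TPM. The lowest gene at day 7 was SOX3 in WT (0.0375 TPM) and SOX1 in HET (0.0350 TPM) and in KO (0.0225 TPM). A few abundant structural RNAs take up part of every TPM total, up to 41.1% of a library for RN7SL1, so levels within a library keep their order but TPM levels across libraries shift together.

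**Figure D1:**
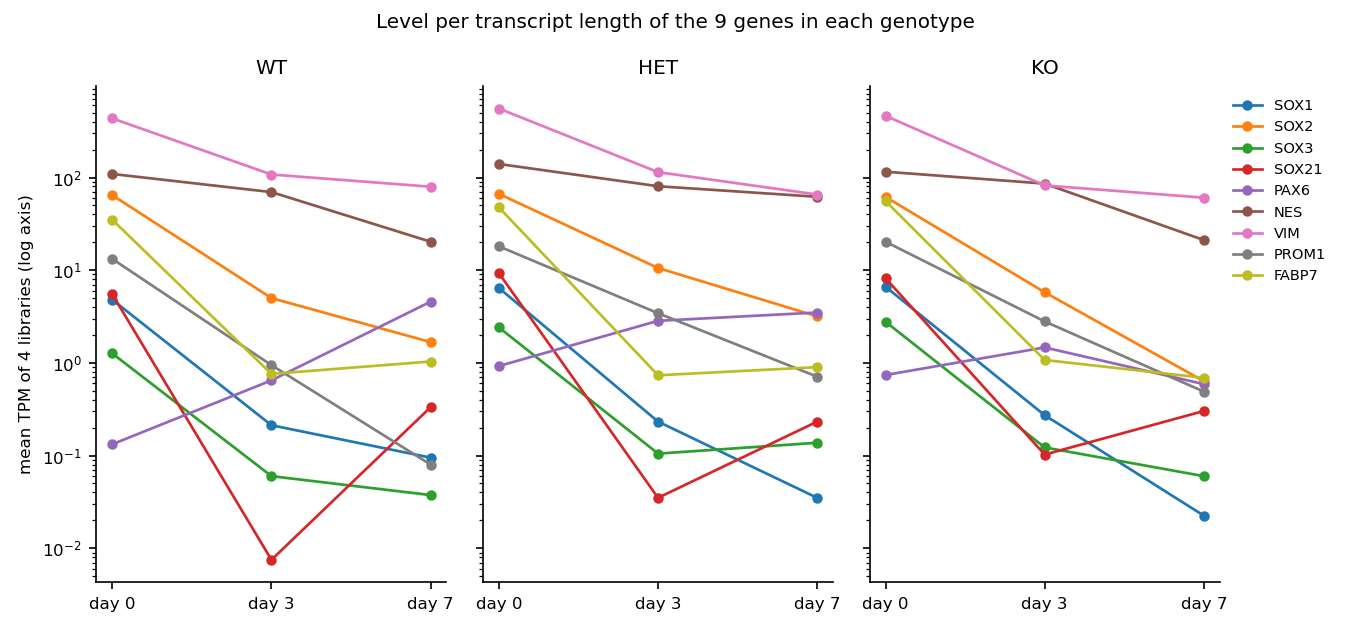
Mean TPM of each of the 9 genes at days 0, 3 and 7 on a log axis, 1 panel per genotype and 4 libraries per point. SOX genes, PROM1 and FABP7 drop between day 0 and day 3 in every panel, while the PAX6 line climbs to 4.58 TPM in WT and ends at 0.590 TPM in KO.

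The course of WT cells gives the reference for the mutants. Between day 0 and day 3, 8 of the 9 genes changed in WT (edgeR, adjusted p under 0.05), 7 of them falling and PAX6 rising, where 60% of all genes tested changed, 28.7% falling and 31.2% rising. NES was the exception. The median log2 fold change of the 9 genes was -3.06, against 0.07 over all genes tested. Between day 3 and day 7, 5 of the 9 changed, against 46.2% of all genes (22.9% falling and 23.3% rising): SOX2 and PROM1 fell again, NES fell, and SOX21 and PAX6 rose.

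SOX1, a marker of the earliest neural plate, stood at 15.9, 27.9, 35.6 and 30.1 CPM in the 4 WT libraries of day 0 and at 1.64, 2.69, 2.42 and 3.09 CPM at day 3. The days did not overlap, and SOX1 fell by 3.49 on the log2 scale (SE 0.35, edgeR adjusted p = 9.7e-07). SOX2 stood at 214.2, 163.6, 187.9 and 191.0 CPM at day 0, at 19.98, 27.2, 32.4 and 45.4 CPM at day 3, and at 21.1, 10.2, 11.2 and 11 CPM at day 7. It fell by 2.61 (SE 0.26, edgeR adjusted p = 1.01e-06) in the first interval and by 1.23 (SE 0.25, edgeR adjusted p = 0.00103) in the second, and replicate 1 of day 7 was alone in reaching the day 3 range. SOX3, the X-linked SOXB1 gene, was far lower, at 2.54 to 3.97 CPM at day 0 and 0.112 to 0.837 CPM at day 3, a fall of 3.24 (SE 0.48, edgeR adjusted p = 4.29e-05). From day 3 to day 7 SOX1 and SOX3 had log2 fold changes of -0.76 and -0.40 in WT, with edgeR adjusted p = 0.0829 and 0.565.

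SOX21 nearly vanished at day 3 in WT and came back by day 7. Its level was 15.3, 24.2, 19.6 and 18.2 CPM at day 0. At day 3 the 4 libraries held 0, 1, 2 and 7 counts of SOX21, and at day 7 they stood at 0.431, 5.38, 2.94 and 1.88 CPM. Every day 7 library lay above every day 3 library and below every day 0 library. The fitted log2 fold changes were -8.34 (SE 0.79, edgeR adjusted p = 6.78e-07) and 5.48 (SE 0.79, edgeR adjusted p = 5.26e-05), and both depend on the handful of day 3 counts. PAX6 ran the other way: 0, 0.304, 0.187 and 0.562 CPM at day 0, then 2.66, 3.23, 2.13 and 1.75 CPM, then 24.9, 14.1, 26.3 and 22.8 CPM. No 2 days overlapped, and PAX6 rose by 3.21 (SE 0.50, edgeR adjusted p = 6.87e-05) and again by 3.17 on the log2 scale (SE 0.42, edgeR adjusted p = 2.77e-05).

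The 250 bases before the RefSeq start (GRCh38.p14) are shown for SOX1, SOX2 and SOX21. Their change from day 3 to day 7 differed between KO and WT by edgeR, and their windows lie almost wholly outside the gene. PAX6 and PROM1 differed as well but are not shown, since 101 and 250 bases of their windows lie inside the gene. Capitals mark the letters of an E-box, CANNTG, the site family read by NGN2 and other basic helix-loop-helix factors, or of a SOX site, ACAAAG. SOX1 lies at chr13:112066899-112067148 on the plus strand, SOX2 at chr3:181711675-181711924 on the plus strand and SOX21 at chr13:94712546-94712795 on the minus strand.
SOX1: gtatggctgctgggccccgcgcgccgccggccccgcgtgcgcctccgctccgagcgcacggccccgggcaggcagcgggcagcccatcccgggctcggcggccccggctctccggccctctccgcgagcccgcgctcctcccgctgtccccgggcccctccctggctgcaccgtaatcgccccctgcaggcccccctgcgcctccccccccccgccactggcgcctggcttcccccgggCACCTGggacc
SOX2: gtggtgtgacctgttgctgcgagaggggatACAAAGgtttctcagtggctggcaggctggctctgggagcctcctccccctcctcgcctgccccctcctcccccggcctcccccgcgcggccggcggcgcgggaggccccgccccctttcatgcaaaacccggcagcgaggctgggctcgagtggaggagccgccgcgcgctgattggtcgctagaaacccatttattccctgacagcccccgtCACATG
SOX21: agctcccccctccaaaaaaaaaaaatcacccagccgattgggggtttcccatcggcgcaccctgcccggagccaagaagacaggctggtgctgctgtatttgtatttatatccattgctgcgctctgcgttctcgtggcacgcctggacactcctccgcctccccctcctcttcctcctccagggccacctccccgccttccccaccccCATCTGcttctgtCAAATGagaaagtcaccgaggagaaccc
The search covered both strands for the E-box CANNTG and its form CAGATG, which NEUROG2 prefers, the SOX sites ACAAAG and ACAATG, and the octamer ATGCAAAT of POU factors. Every CAGATG is also a CANNTG. The SOX21 window held CANNTG at 41 and 28 bases before the start, and the first of these reads CATCTG, the reverse complement of CAGATG, a form that 12.2% of all 35116 promoter windows held. SOX1 held CANNTG at 11 bases before the start as CACCTG, and SOX2 held it at 6 bases as CACATG, while 61.8% of all windows held at least 1. The ACAAAG of SOX2 began 220 bases before the start, and 13.7% of all windows held that motif. ACAATG (9.3% of all windows) and ATGCAAAT (1.6%) were found in none of the 9 windows. Among the 6 other genes, PROM1 held CANNTG once, FABP7 held ACAAAG once, and SOX3, PAX6, NES and VIM held none of the motifs. PAX6 has 9 RefSeq starts and PROM1 has 4, of which the most upstream was used, and all 250 bases of the PROM1 window and 241 of the FABP7 window lie inside the gene as GENCODE 29 draws it. The GC content of the 9 windows ran from 46.0% for VIM to 82.0% for SOX1, against a median of 58.0% over all windows and 38.0% to 75.2% between their 10th and 90th percentiles.

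The filament genes stayed the most abundant of the set. NES was at 631.7, 1091, 713.2 and 621.2 CPM at day 0 in WT and at 1114, 937.7, 736.9 and 973.2 CPM at day 3, ranges that overlap (log2 fold change 0.29, SE 0.22, edgeR adjusted p = 0.284). At day 7 it was at 276.2, 322.4, 344.0 and 508.8 CPM, below every day 3 library, a fall of 1.36 (SE 0.23, edgeR adjusted p = 1.99e-04). VIM was at 826.5, 1469, 717.8 and 650.8 CPM at day 0 and fell by 1.02 (SE 0.24, edgeR adjusted p = 0.00193) to 367.7, 489.1, 386.7 and 575.4 CPM at day 3. Its day 7 level of 332.4 to 493.9 CPM overlapped that of day 3 (-0.06, SE 0.24, edgeR adjusted p = 0.868). PROM1 made the steadiest descent, from 48.3, 56.6, 51.5 and 58.6 CPM through 8.35, 6.98, 4.77 and 5.81 CPM to 0.185, 0.452, 0.320 and 0.412 CPM. It fell by 3.06 (SE 0.21, edgeR adjusted p = 2.37e-08) and then by 4.19 on the log2 scale (SE 0.25, edgeR adjusted p = 1.87e-08). FABP7 fell once, from 12.8, 19.0, 29.9 and 39.3 CPM at day 0 to 0.277, 0.875, 0.863 and 2.83 CPM at day 3 (-4.42, SE 0.56, edgeR adjusted p = 1.04e-05). At day 7 FABP7 was at 1.201 to 2.56 CPM, with a log2 fold change of 0.67 from day 3 (SE 0.53, edgeR adjusted p = 0.327).

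**Figure D2:**
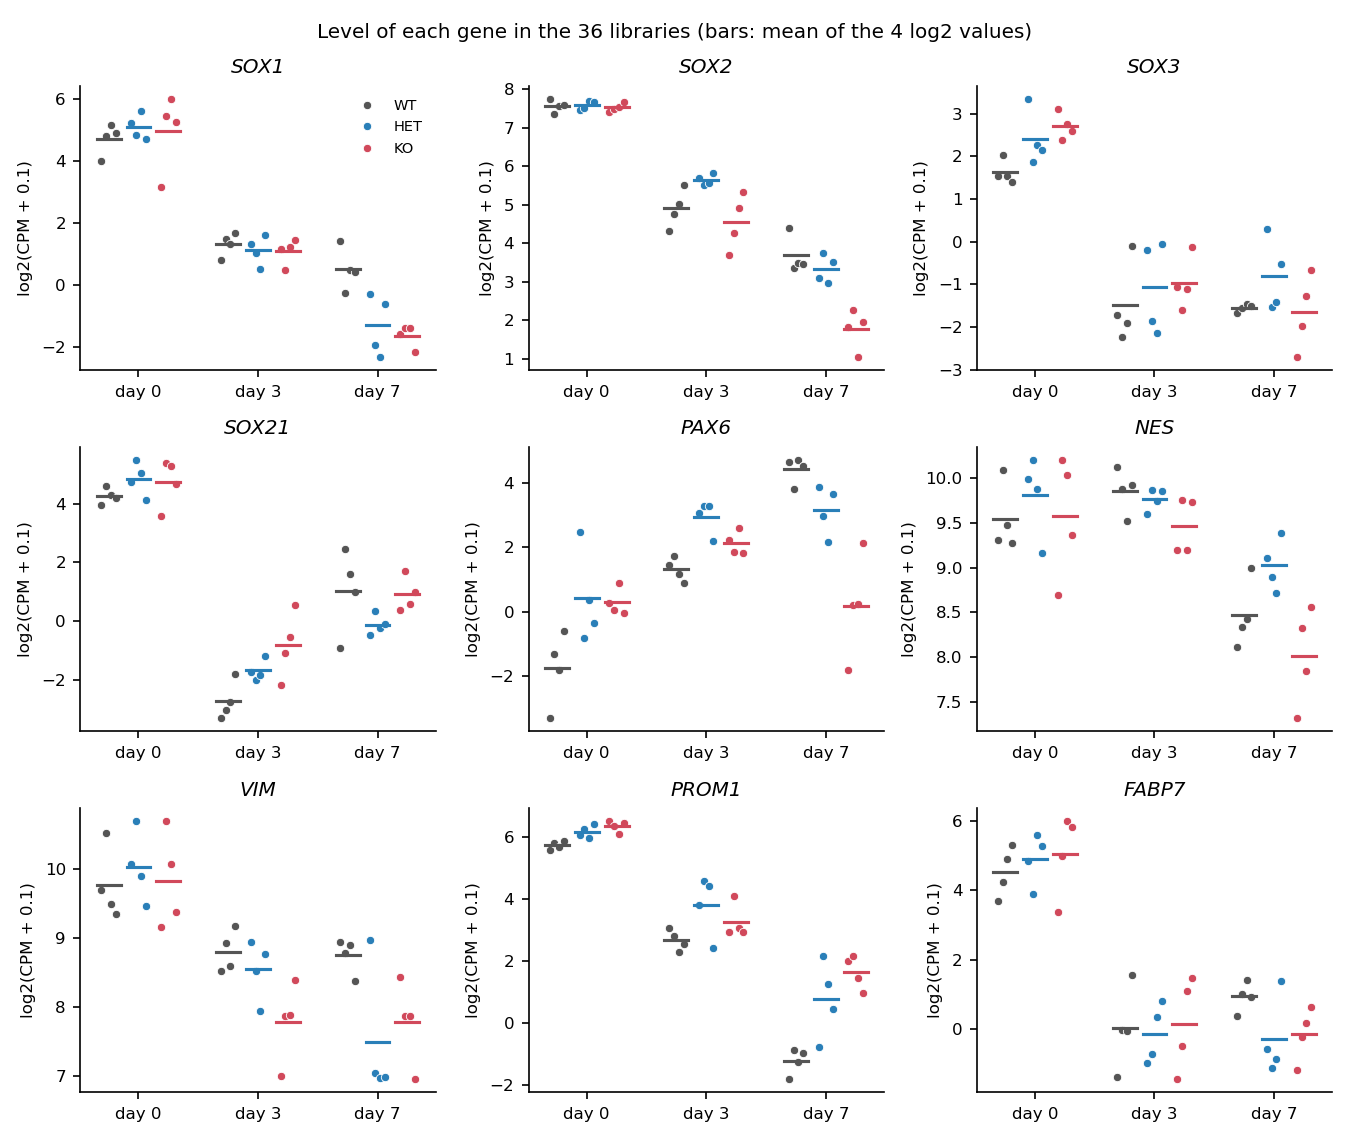
Level of each gene in every library as log2(CPM + 0.1), grouped by day and coloured by genotype, with bars at the mean of the 4 log2 values. PAX6 climbs to 14.1 to 26.3 CPM in WT at day 7 while the KO libraries sit at 0.183 to 4.30 CPM, and the PROM1 panel shows the reverse order at day 7.

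At day 0 the genotypes differed at 1 of the 9 genes. PROM1 was called higher in KO than in WT, where 2.08% of all genes were called. Its level was 91.8, 82.7, 69.3 and 88.4 CPM in KO and 67.7, 76.6, 62.1 and 85.0 CPM in HET, against the WT values above. Every KO and HET library exceeded every WT library. The log2 fold change was 0.65 in KO (SE 0.11, edgeR adjusted p = 0.00471) and 0.46 in HET (SE 0.11, edgeR adjusted p = 0.0572), and both comparisons share the WT libraries. In HET against WT 0 of the 9 genes passed, against 1.63% of all genes, with 3 below an unadjusted p of 0.05 (PROM1, SOX3 and PAX6). DESeq2 called PAX6 and PROM1 there. In KO against HET 0 of 9 passed by edgeR and by DESeq2, against 0.856% of all genes, and none was below an unadjusted p of 0.05.

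SOX3 at day 0 was at 2.80, 3.97, 2.80 and 2.54 CPM in WT, at 10.1, 3.54, 4.68 and 4.32 CPM in HET, and at 8.49, 5.14, 6.72 and 5.97 CPM in KO. The KO libraries were all above WT, whereas 1 HET library lay inside the WT range. The log2 fold change in KO was 1.14 (SE 0.30, edgeR adjusted p = 0.0849). Libraries of the same replicate number deviated together in this comparison, and with the replicate block SOX3 passed as well (1.10, SE 0.26, edgeR adjusted p = 0.0446; 4.7% of all genes called). PAX6 was barely detected at day 0, at up to 0.562 CPM in WT. It was at 5.46, 0.471, 1.19 and 0.685 CPM in HET and 1.11, 0.941, 1.77 and 0.879 CPM in KO, where every library was above WT, with log2 fold changes of 2.92 (SE 0.86, edgeR adjusted p = 0.156) and 2.18 (SE 0.86, edgeR adjusted p = 0.296). SOX2 was the most even of the 9 genes, with group means of 189.2 ± 20.7 CPM for WT, 191.2 ± 15.6 for HET and 184.7 ± 13.9 for KO (mean ± SD, n = 4). Its log2 fold changes were -0.01 in KO and 0.03 in HET (SE 0.09 each).

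SOX1, SOX21, NES, VIM and FABP7 gave no call at day 0, and their libraries were widely spread within a group. Replicate 1 was the lowest library for SOX1 in both WT (15.9 CPM) and KO (8.95 CPM, against 38.1 to 64.1 in the other KO libraries), and the same libraries were lowest for FABP7, at 12.8 and 10.4 CPM. NES at 414.9 CPM and SOX21 at 12.02 CPM were also lowest in that KO library. Within groups at day 0, deviations of log2 CPM correlated at r = 0.95 for SOX21 with NES, 0.92 for NES with VIM and 0.84 for SOX1 with FABP7, a description over the 12 libraries, which share their scaling.

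At day 3, 2 of the 9 genes were called in KO against WT, SOX21 higher and VIM lower, where 21.6% of all genes were called. SOX21 was at 5, 18, 21 and 56 counts, or 0.119, 0.375, 0.584 and 1.38 CPM, in KO, against 0, 1, 2 and 7 counts in WT, and the lowest KO library lay inside the WT range. The log2 fold change was 3.32 (SE 0.86, edgeR adjusted p = 0.0142). VIM was at 128.0, 233.9, 236.8 and 335.8 CPM in KO, with every library below every WT library (-0.96, SE 0.29, edgeR adjusted p = 0.0284). Leaving out any 1 of WT replicates 2 and 4 or KO replicates 1, 2 and 3 took VIM above the threshold, and limma on log2(TPM + 1) gave -0.47 (adjusted p = 0.532). The share of the 9 genes called is near the share of all genes.

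PAX6 was called higher in HET than in WT at day 3, 1 of 9 genes against 3.28% of all genes. Its level was 8.32, 9.61, 9.65 and 4.49 CPM in HET and 4.57, 3.52, 6.01 and 3.46 CPM in KO, all above the WT maximum of 3.23 CPM. The log2 fold change was 1.71 in HET (SE 0.30, edgeR adjusted p = 0.00541) and 0.84 in KO (SE 0.30, edgeR adjusted p = 0.0567). In TPM PAX6 was at 1.05 to 5.56 in HET and 0.80 to 2.15 in KO, both overlapping WT at 0.24 to 1.25. The HET call was lost by limma on log2 TPM with either pseudocount. In both day 3 comparisons with WT the replicate numbers paired the libraries. With the replicate block PAX6 passed in KO too (0.85, SE 0.23, edgeR adjusted p = 0.0116; 37.7% of all genes called). In HET the block added SOX2 (0.78, SE 0.21, edgeR adjusted p = 0.0349) and PROM1 (1.17, SE 0.32, edgeR adjusted p = 0.0403), where 8.79% of all genes were called.

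SOX2 at day 3 was at 51.7, 45.8, 47.1 and 56.5 CPM in HET, above every WT library, and at 12.8, 19.1, 30.1 and 39.8 CPM in KO, within a range that overlaps WT. Without the block its log2 fold changes were 0.69 (SE 0.31, edgeR adjusted p = 0.339) and -0.29 (SE 0.31, edgeR adjusted p = 0.529). PROM1 was at 13.9, 23.8, 21.5 and 5.32 CPM in HET and 7.54, 17.1, 8.38 and 7.54 CPM in KO, and both ranges overlapped WT. SOX1 and NES were close in all 3 genotypes at day 3: SOX1 had log2 fold changes of -0.22 in KO and -0.19 in HET, and NES of -0.38 and -0.11. SOX3 and FABP7 were scattered, at 0.112 to 0.857 CPM and 0.262 to 2.83 CPM over the 12 libraries. Between KO and HET 0 of 9 genes passed at day 3 by edgeR, against 4.35% of all genes, with 3 (SOX2, PAX6 and VIM) below an unadjusted p of 0.05 and 2 (SOX2 and PAX6) called by DESeq2.

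**Figure D3:**
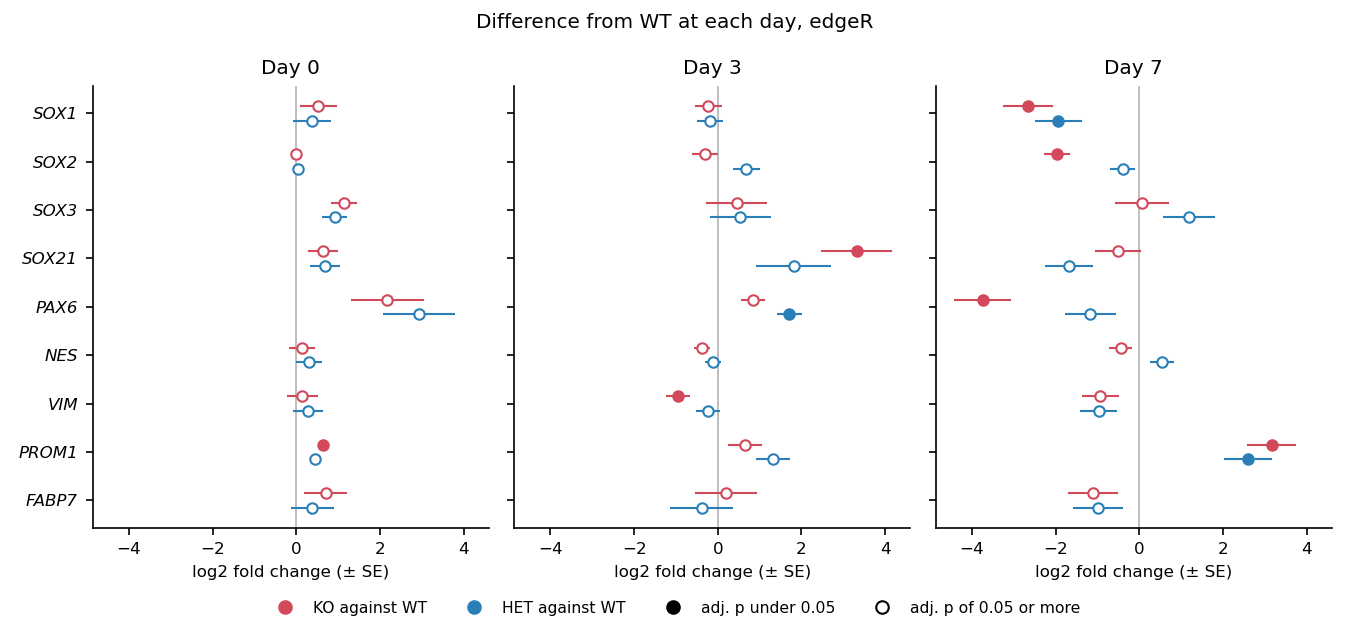
Log2 fold change of each gene in KO (red) and HET (blue) against WT at each day, with standard errors from edgeR on the 12 libraries of that day and filled points where the adjusted p is under 0.05. At day 7 SOX1, SOX2 and PAX6 lie to the left in KO, at -2.66, -1.96 and -3.75, and PROM1 lies at 3.16 in KO and 2.59 in HET.

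Day 7 held the most calls in KO against WT: 3 transcription factors were lower in KO and PROM1 was higher. Over all genes, too, calls in KO against WT rose from 2.08% at day 0 and 21.6% at day 3 to 32.6% at day 7. These 4 of 9 genes compare with 32.6% of all genes called, 15.6% lower and 17% higher, so the count alone does not set the 9 genes apart. The median log2 fold change of the 9 was -0.93, against -0.04 over all genes. PAX6 was at 0.183, 1.07, 1.07 and 4.30 CPM in KO, all far below the WT minimum of 14.1 CPM, a log2 fold change of -3.75 (SE 0.69, edgeR adjusted p = 0.00144). SOX2 was at 3.47, 4.73, 1.95 and 3.77 CPM in KO, below the WT minimum of 10.2 CPM (-1.96, SE 0.31, edgeR adjusted p = 6.07e-04). SOX1 was at 2.59, 0.737, 1.31 and 1.24 CPM in WT and at 0.235, 0.286, 0.283 and 0.125 CPM in KO, from 4 to 11 counts, again without overlap (-2.66, SE 0.59, edgeR adjusted p = 0.00439). In bulk libraries such as these, fewer cells of a type and less RNA per cell cannot be told apart.

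PROM1 was nearly gone from WT at day 7, at 6 to 19 counts, while KO held 60 to 170 counts and HET 19 to 161. Its level was 3.91, 4.42, 2.66 and 1.87 CPM in KO and 0.488, 4.35, 2.30 and 1.27 CPM in HET, and each of these 8 libraries lay above the WT maximum of 0.452 CPM. HET replicate 1 and WT replicate 2 both held 19 counts, so their order rests on the scaling. In TPM the HET range of 0.08 to 1.87 overlapped the WT range of 0.02 to 0.22. The log2 fold change was 3.16 in KO (SE 0.58, edgeR adjusted p = 0.00141) and 2.59 in HET (SE 0.57, edgeR adjusted p = 0.0100). The HET call was lost by limma on log2 TPM with either pseudocount. HET against WT called 2 of 9 genes, against 14.4% of all genes. The second was SOX1, at 0.719, 0.162, 0.0990 and 0.554 CPM in HET, just below the WT minimum (-1.93, SE 0.57, edgeR adjusted p = 0.0364). SOX1 in HET lost the call without any 1 of WT replicates 1, 3 and 4 or HET replicates 2 and 3, and with the structural RNA share as a covariate (-1.35, edgeR adjusted p = 0.0814). The 4 KO calls kept their direction and threshold with that covariate, with log2 fold changes of -1.75 for SOX1, -1.93 for SOX2, -3.25 for PAX6 and 2.28 for PROM1.

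By mean CPM, HET lay between WT and KO for PAX6 and SOX2 at day 7. Neither gene was called in HET against WT, with log2 fold changes of -1.17 for PAX6 and -0.395 for SOX2 (edgeR adjusted p = 0.229 and 0.417). In mean TPM, SOX2 was higher in HET (3.175) than in WT (1.677) and KO (0.635). PAX6 was at 14.5, 7.83, 4.35 and 12.5 CPM in HET, with 1 library inside the WT range and all above KO, and SOX2 at 8.40, 13.2, 7.67 and 11.2 CPM, overlapping WT and above KO. KO against HET called SOX2 alone of the 9 (-1.57, SE 0.31, edgeR adjusted p = 0.0236), against 1.4% of all genes, and PAX6 had a log2 fold change of -2.58 (SE 0.66, edgeR adjusted p = 0.0870). The SOX2 call was lost without any 1 of HET replicates 2 and 4 or KO replicates 1 and 3. WT replicate 1 stood apart at day 7, highest for SOX2 and SOX1 and lowest for SOX21. Without it the KO difference was -1.67 for SOX2 and -2.26 for SOX1 (edgeR adjusted p = 0.00144 and 0.0144).

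VIM at day 7 was at 345.8, 233.7, 235.5 and 124.1 CPM in KO, overlapping WT by 1 library (-0.93, SE 0.44, edgeR adjusted p = 0.117). In HET it was at 503.8 CPM in replicate 1 and at 132.9, 126.1 and 127.5 CPM in the others (-0.97, SE 0.44, edgeR adjusted p = 0.155). Replicate 1 of HET carried 27.5% of its counts in the structural RNAs, the highest share of the group, and without it VIM passed in HET (-1.79, edgeR adjusted p = 5.4e-04). In TPM that library did not stand apart, with VIM at 60.75 TPM against 96.9, 72.99 and 31.49 TPM in the others. The HET range overlapped the WT range of 61.91 to 112.2 TPM. The 4 remaining genes gave no call in either mutant at day 7. SOX21 was at 1.2, 3.17, 1.41 and 1.90 CPM in KO and 0.616, 1.16, 0.742 and 0.831 CPM in HET, inside the wide WT range, with log2 fold changes of -0.52 and -1.68 (edgeR adjusted p = 0.498 and 0.0686). FABP7 had log2 fold changes of -1.11 and -0.996 (SE 0.60 each), NES of -0.45 in KO and 0.54 in HET, and SOX3 of 0.07 and 1.19.

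The tests on the deposited TPM bear on the day 7 results. With limma on log2(TPM + 1), PAX6 alone of the 4 KO calls passed (-1.86, adjusted p = 0.00128), while SOX1 was below that test's filter, SOX2 gave -0.71 (adjusted p = 0.274) and PROM1 gave 0.46 (adjusted p = 0.276). On that scale the median gene lay 0.34 above WT in KO and 0.65 above WT in HET. With a pseudocount of 0.1 PAX6 was again the only call of these (-3.13, limma adjusted p = 5.84e-04), with SOX2 at -1.28 (limma adjusted p = 0.168) and PROM1 at 1.75 (limma adjusted p = 0.105).

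The change over time itself was compared between genotypes over all 36 libraries. From day 3 to day 7, 5 of the 9 genes changed differently in KO and WT, where 18.5% of all genes did (10.9% lower and 7.6% higher): SOX1, SOX2, SOX21 and PAX6 moved lower in KO relative to WT and PROM1 moved higher. The median difference of the 9 genes was -1.34, against -0.10 over all genes. PAX6 went from 3.46 to 6.01 CPM at day 3 to 0.183 to 4.30 CPM at day 7 in KO, 3 of its 4 day 7 libraries lying below every day 3 library, while it rose in WT (difference -4.62, SE 0.91, edgeR adjusted p = 4.16e-04). SOX21 went from 0.119 to 1.38 CPM to 1.2 to 3.17 CPM in KO, a smaller step than in WT, where it started from almost nothing (-3.87, SE 0.97, edgeR adjusted p = 0.00424). SOX2 went from 12.8 to 39.8 CPM to 1.95 to 4.73 CPM in KO (-1.69, SE 0.39, edgeR adjusted p = 0.00190), and SOX1 from 1.31 to 2.68 CPM to 0.125 to 0.286 CPM (-2.44, SE 0.69, edgeR adjusted p = 0.0117). PROM1 went from 7.54 to 17.1 CPM to 1.87 to 4.42 CPM in KO, a shallower descent than in WT (2.48, SE 0.62, edgeR adjusted p = 0.00446). By limma on log2(TPM + 1) or log2(TPM + 0.1) PAX6 alone of the 5 passed, and PROM1 changed sign with the pseudocount of 1 (-0.37, limma adjusted p = 0.969).

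The corresponding HET differences passed at 0 of the 9 genes by edgeR, against 4.74% of all genes, with 5 below an unadjusted p of 0.05 and DESeq2 calling SOX21 and PAX6. SOX21 and PAX6 came closest, at -3.48 (SE 1.06, edgeR adjusted p = 0.0504) and -2.86 (SE 0.88, edgeR adjusted p = 0.0537). SOX2, SOX1 and PROM1 had differences of -1.06, -1.73 and 1.28. Leaving out HET day 7 replicate 1 brought PAX6, SOX1 and VIM past the threshold, leaving out WT day 3 replicate 4 brought SOX2 and SOX21, leaving out WT day 7 replicate 1 brought SOX21 and leaving out HET day 3 replicate 4 brought PAX6. The KO and HET differences share the WT libraries, and the test between them was not run. From day 0 to day 3, 0 of 9 genes passed in KO by edgeR (8.55% of all genes did), with 1 below an unadjusted p of 0.05. That gene was SOX21, at 2.75 (SE 0.96, edgeR adjusted p = 0.0690), which DESeq2 called. In HET 0 of 9 passed by edgeR and by DESeq2, and none was below an unadjusted p of 0.05 (0.271% of all genes passed).

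**Figure D4:**
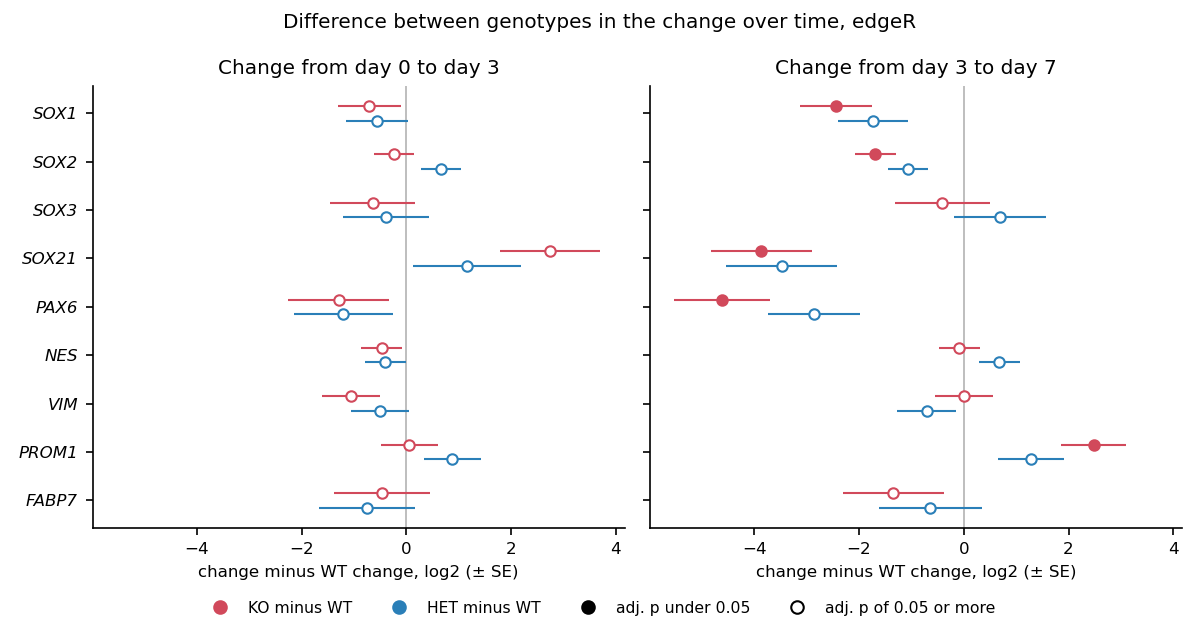
Difference between a mutant and WT in the log2 change over time, with standard errors from edgeR on all 36 libraries, for the interval from day 0 to day 3 (left) and from day 3 to day 7 (right). Filled points have an adjusted p under 0.05: PAX6 at -4.62, SOX21 at -3.87, SOX1 at -2.44, SOX2 at -1.69 and PROM1 at 2.48, all for KO in the later interval.

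Ranked over the 9 groups by mean CPM, SOX1, SOX2, SOX3, SOX21, VIM, PROM1 and FABP7 had the 3 day 0 groups on top. Every day 0 library lay above every later library for 6 of these genes, whereas for VIM the lowest KO day 0 library (572.1 CPM) lay below the highest WT day 3 library (575.4 CPM). PROM1 was the only one of these with a gap between neighbouring day 0 groups, with WT (53.7 CPM) apart from HET (72.9 CPM), which overlapped KO (83.1 CPM). PAX6 was topped by WT day 7 at 22.0 ± 5.5 CPM, followed by HET day 7 at 9.79 ± 4.57 and HET day 3 at 8.02 ± 2.43, neighbours that overlapped, and WT day 0 was lowest at 0.263 ± 0.235 and apart from the next (SD, n = 4 each). NES had WT day 3 on top at 940.5 ± 155.7 CPM and KO day 7 at the bottom at 271.4 ± 96.7, and every neighbour in its order overlapped. At the lower end KO day 7 was the lowest group for SOX1, SOX2, NES and FABP7, HET day 7 for VIM, WT day 7 for SOX3 and PROM1, WT day 3 for SOX21 and WT day 0 for PAX6. The lowest group was separated from its neighbour for SOX2, PROM1 and PAX6 only.

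Over the 36 libraries the log2 CPM of SOX1, SOX2, SOX3, SOX21 and FABP7 correlated with each other at r = 0.71 to 0.94, all of them highest at day 0, and PAX6 correlated negatively with the 8 others, from -0.69 with PROM1 to -0.16 with NES. Once group means were removed, SOX1 with FABP7 (r = 0.65) and SOX21 with NES (0.62) were the highest of the 36 pairs, and SOX3 with PROM1 (-0.56) the lowest. Of 13970 other genes, those most like each member over the 36 libraries were ODAD2 for SOX1 (r = 0.98), ATP6V0A2 for SOX2 (0.98), FOXB1 for SOX3 (0.97), SOX21-AS1 for SOX21 (0.99), CERKL for PAX6 (0.89), ANKRD18A for NES (0.88), HSPG2 for VIM (0.89), ZNF850 for PROM1 (0.98) and F13A1 for FABP7 (0.97). The next in rank were FST and ADAMTS12 for SOX1, SPTLC1 and PLS3 for SOX2, SP8 and CCDC80 for SOX3, CCDC160 and PTPN13 for SOX21 and ABCC9 and CCDC3 for PAX6. For the other members they were LOXL2 and PARVA (NES), PLOD3 and CDC42EP1 (VIM), NSMAF and LINC01224 (PROM1) and PAX8 and CLDN11 (FABP7). PAX6, NES and VIM had no gene above r = 0.89, a looser match than the others had.

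Some members share their locus with other transcripts in GENCODE 29, and the use of strand in counting is not given in the sources used here. SOX2 (chr3:181711924-181714436, plus strand) has a single exon and lies inside the long noncoding SOX2-OT on the same strand, so their reads can be split between them. SOX2-OT was at 14.5 to 21.2 CPM in WT at day 0, against 163.6 to 214.2 CPM for SOX2, and at 0.297 to 0.616 CPM in WT against 0.499 to 1.07 CPM in KO at day 7, when SOX2 was lower in KO. PAX6 (chr11:31784779-31818062, minus strand) overlaps ELP4, PAUPAR and AL035078.4 on the other strand. ELP4 was at 18.6 to 48.2 CPM in WT and 16.7 to 22.8 CPM in KO at day 7, and at 19.2 to 21.5 CPM in the WT day 0 libraries that held at most 19 counts of PAX6. VIM (chr10:17228259-17237593, plus strand) overlaps VIM-AS1, which reached at most 2.36 CPM in any library, and AL133415.1, both on the other strand. PROM1 (chr4:15963076-16084378, minus strand) overlaps FGFBP2 on the same strand, so their reads can be split between them. The level of FGFBP2 was not examined. SOX21-AS1, the antisense neighbour of SOX21 (chr13:94709622-94712399, minus strand), does not overlap it in GENCODE 29 and was at 6.30 to 9.23 CPM at day 0, 0 to 0.157 CPM at day 3 and 0.123 to 4.50 CPM at day 7 in WT, a course like that of SOX21. Like SOX21, SOX1 (chr13:112067647-112070488, plus strand), SOX3 (chrX:140502985-140505116, minus strand), NES (chr1:156668763-156677397, minus strand) and FABP7 (chr6:122779475-122784074, plus strand) overlap no other gene.

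Other genes of progenitors gave a wider view than the 9. Of 28 such genes, 25 were tested in WT, where 16 changed from day 0 to day 3, 2 rising and 14 falling (median log2 fold change -1.55), where 60% of all genes changed. The largest log2 fold changes were those of TNC (tenascin C, a matrix protein of radial glia) at -8.19, PTPRZ1 at -5.01 and SLC1A3, a glutamate transporter, at -4.803. From day 3 to day 7, 17 of 25 changed, against 46.2% of all genes, 10 rising and 7 falling, and TNC (8.84), DACH1 (3.46) and LHX2 (3.16) rose the most. In KO against WT at day 3, 14 of 24 were called, against 21.6% of all genes, 10 higher and 4 lower (median 0.58, against -0.05 over all genes). Among them the Notch targets HES5 (3.62) and HES1 (-5.00) went opposite ways, and DACH1 was higher by 3.80. Both HES values rest on levels near 0. HES5 was at 0 to 0.216 CPM in WT, and HES1 at 0 to 0.540 CPM in KO against 1.615 to 13.95 CPM in WT. At day 7, 13 of 25 were called in KO, against 32.6% of all genes, 4 higher and 9 lower, with CCND1, which encodes cyclin D1, higher by 3.68 and SLC1A3 and GLI3 lower (-3.43 and -3.13). SLC1A3 was low in both genotypes, at 1.139 to 6.35 CPM in WT and 0.170 to 0.405 CPM in KO. HET against WT called 3 of 24 at day 3 (3.28% of all genes), all higher, and 6 of 25 at day 7 (14.4% of all genes), 3 in each direction, of which SOX9 (-3.78) was the largest fall. In the KO-minus-WT change from day 3 to day 7, 13 of 26 were called, against 18.5% of all genes, 11 lower and 2 higher, with FGFR3 (-4.02), HES5 (-3.72) and DACH1 (-3.21) at the extreme. The HES5 value rests on the same low WT day 3 level.

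The SOX family outside the set moved in both directions. In KO against WT at day 3, 5 of 11 tested were called, against 21.6% of all genes, and SOX4 (1.82) and SOX11 (1.69), SOXC factors of new neurons, were higher together with SOX8 (1.24). At day 7, 6 of 9 were called in KO, against 32.6% of all genes, with SOX9, a factor of glial progenitors, lower (-2.27) and SOX6 and SOX8 higher (2.00 and 1.38). Among 11 other intermediate filament genes, 4 of 10 tested were called in KO at day 3, against 21.6% of all genes, all higher. At day 7, 7 of 10 were called in KO, against 32.6% of all genes, 5 higher and 2 lower. The neurofilament genes NEFM and NEFL were higher in KO at day 3 (3.76 and 3.05), when VIM was lower. INA and NEFM were higher in KO at day 7 (1.84 and 1.78), and DES was lower (-4.53), from a low level of 0.431 to 2.219 CPM in WT to 0 to 0.0779 CPM in KO.

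Markers of other states differed between the genotypes as well. The 10 neuron markers summed to 231.5 to 445.1 TPM (1373 to 1698 CPM) in WT and 726.9 to 3298 TPM (4798 to 7980 CPM) in KO at day 3. Of the 10, 9 were called higher in KO, where 21.6% of all genes were called. At day 7 they summed to 751.2 to 1802 TPM (6265 to 11660 CPM) in WT and 1621 to 2726 TPM (11280 to 15020 CPM) in KO. In KO 5 of 10 were called, against 32.6% of all genes, 4 higher and 1 lower, the last being NEUROD1 (-5.18). In the KO-minus-WT change from day 3 to day 7, 6 of the 10 were called lower and 0 higher, against 10.9% and 7.6% of all genes. The 12 proliferation genes summed to 2181 to 3615 CPM in WT and 659.7 to 1686 CPM in KO at day 3. Of these, 9 of 12 were called lower and none higher, where 21.6% of all genes were called. In TPM the day 3 sums overlapped, at 294.5 to 732.8 in WT and 161.8 to 602.9 in KO. At day 7 they summed to 117.3 to 361.1 CPM in WT, 67.3 to 94.96 CPM in HET and 69.3 to 76.5 CPM in KO. In each mutant 10 of 12 were called lower, against 14.4% of all genes called in HET and 32.6% in KO. In TPM the day 7 sums overlapped too, at 13.69 to 39.02 in WT, 9.9 to 43.27 in HET and 13.83 to 19.98 in KO. The 8 mesenchyme markers summed to 2.52 to 5.46 TPM (38.71 to 58.69 CPM) in WT and 0.770 to 0.990 TPM (5.174 to 7.091 CPM) in KO at day 7, where COL1A1, COL1A2 and PDGFRB were lower. POU5F1 was near 0 in every group at day 7 and NANOG from day 3 on. All 4 stem cell markers tested at day 7 were called in KO, against 32.6% of all genes. Of these, 3 were higher and 1 lower, among them LIN28A (3.38), PRDM14 (2.60) and DPPA4 (-2.29). Of 9 neural crest markers, 6 were called in KO at day 7, 3 in each direction. Of 6 glia markers, 3 were tested and 1 was called higher. Both counts stand against 32.6% of all genes called. The part of these states in the differences of SOX1, SOX2, PAX6 and PROM1 was not tested.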

How the data were processed

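Per the labels' protocols, ribosomal RNA was removed before library preparation and reads were paired, 151 bp long. The authors deposited expected counts and TPM per gene, and the submitters' processing notes name cutadapt 4.8, FastQC 0.11.8, MultiQC 1.20, STAR 2.7.8a, RSEM 1.3.3 and GRCh38. The annotation and the strand setting are not given in the sources used here. All deposited expected counts were whole numbers, so none was rounded. The deposited TPM were used for order between genes and for an alternative test. All 36 libraries carry 1 batch label.

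From the counts, 4 reporter sequences (at most 0.0171% of a library) were left out. Positions come from GENCODE 29, which matched 92.9% of the identifiers. Levels are CPM after TMM scaling over all libraries. Comparisons used edgeR 4.0.16 (R 4.3.3) with its low-count filter, the quasi-likelihood F test and Benjamini-Hochberg adjustment over all genes tested. Genotypes were compared over the 12 libraries of a day, days over the 12 WT libraries, and changes over time over all 36. A gene was called at an adjusted p under 0.05, and the SE is the absolute log2 fold change over the square root of F. The fits were tested on simulated data. DESeq2 1.42.0, limma 3.58.1 on log2 TPM with a pseudocount of 1 or 0.1, other scalings, no filter, 8 libraries alone, a structural RNA covariate, a replicate block and leaving out each replicate were the alternatives.

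Same-numbered libraries were taken as paired where every pair of deviations from the group means correlated above 0.1. This held for KO against WT at day 0 (r = 0.271 to 0.662) and day 3 (0.134 to 0.563) and HET against WT at day 3 (0.171 to 0.785). The text describes all 9 genes, at most 3 called genes of each other list by size of change, and the 3 genes most correlated with each member on log2(CPM + 1) among those with a mean of at least 5 CPM in their highest group. SOX2-OT, ELP4, VIM-AS1 and SOX21-AS1 are described as overlapping or neighbouring genes. The members and lists were chosen with earlier results of these data known.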

Additional observations from a re-analysis of the deposited data

Results flagged for a closer look

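In 6 of the 81 gene and group sets of 4 libraries, 1 library lay far from the other 3 by Dixon's test. Chance alone gives about 4 in 81, or 1 in 20. SOX2 was at 21.1 CPM in replicate 1 of WT at day 7, against 10.2 to 11.2 CPM in the others. SOX3 was at 0.837 CPM in replicate 4 of WT at day 3, against 0.112 to 0.203 CPM. PAX6 was at 5.46 CPM in replicate 1 of HET at day 0, against 0.471 to 1.19 CPM. VIM was at 503.8 CPM in replicate 1 of HET at day 7, against 126.1 to 132.9 CPM, in the library with 27.5% structural RNA. In TPM that library, at 60.75, lay within the 31.49 to 96.9 of the others. PROM1 was at 17.1 CPM in replicate 2 of KO at day 3, against 7.54 to 8.38 CPM. FABP7 was at 2.49 CPM in replicate 4 of HET at day 7, against 0.351 to 0.565 CPM.

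For 5 genes the change from day 3 to day 7 differed between KO and WT by edgeR's test of the difference itself. The log2 differences were -4.62 for PAX6, -3.87 for SOX21, -2.44 for SOX1, -1.69 for SOX2 and 2.48 for PROM1. By limma on TPM, with a pseudocount of 1 or 0.1, PAX6 alone of the 5 passed, and PROM1 changed sign with the pseudocount of 1 (-0.37).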

How the results depend on the processing

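Of 29 calls on single genes, 16 kept their direction and threshold under every setting that could test them, and 26 did so under every such setting on counts. The other 3 were VIM in KO against WT at day 3, SOX1 in HET against WT at day 7 and SOX2 in KO against HET at day 7. A call had 14 to 23 such settings, and a gene below a setting's filter, such as SOX1 at day 7 or SOX21 at day 3 in the TPM tests, was not tested there. SOX21 in KO against WT at day 3 was also below the filter with 8 libraries alone. Of 26 calls tested by limma on log2(TPM + 1), 11 were lost and 1 changed sign, that of PROM1 in the KO-minus-WT change from day 3 to day 7 (-0.37). The causes were not tested. On that scale the median gene moved by up to 0.65 between genotypes (HET against WT at day 7), and 90.2% of the calls there were higher in HET, against 57.7% by edgeR. For KO against WT the shares higher were 87.0% against 58.6% at day 3 and 74.1% against 52.1% at day 7.

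Counts of the 9 genes called moved as follows. At day 0, KO against WT called 2 by DESeq2, with the replicate block and with 8 libraries alone, and 0 by limma with either pseudocount. HET against WT called 1 with DESeq2's size factors or the replicate block and 2 by DESeq2. At day 3, KO against WT called 0 by limma with either pseudocount and 1 with 8 libraries alone, settings in which SOX21 was not tested. HET against WT called 2 by DESeq2 or with the covariate, 3 with the replicate block and 0 by limma with either pseudocount. KO against HET called 1 with library size alone or the covariate and 2 by DESeq2 or with the replicate block. At day 7, KO against WT called 1 by limma with either pseudocount. HET against WT called 0 by limma with either pseudocount and 1 with 8 libraries alone. KO against HET called 2 with no filter, the covariate or the replicate block, 3 by DESeq2 and 0 by limma with a pseudocount of 1. For the KO-minus-WT change, DESeq2 and the replicate block called 1 in the first interval, and limma called 1 in the second with either pseudocount. For the HET-minus-WT change in the second interval, no filter and DESeq2 called 2 and the replicate block called 1. The replicate block is a hint only outside the 3 paired comparisons.

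Leaving out 1 library gave 0 to 1 genes for HET against WT and 1 for KO against WT at day 0, 1 to 3 for KO against WT, 1 to 2 for HET against WT and 0 to 1 for KO against HET at day 3, and 4, 1 to 3 and 0 to 2 for those comparisons at day 7. It gave 8 and 5 to 6 for the WT intervals, 0 to 1 and 5 for the KO-minus-WT changes, and 0 to 3 for the HET-minus-WT change in the second interval. Genes with few counts, such as SOX21 at day 3 and SOX1 at day 7, are limited by depth.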
